A study of Homo sapiens with 8 samples.

Results

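The annexin genes measured here were ANXA1, ANXA2, ANXA3, ANXA4, ANXA5, ANXA6, ANXA7, ANXA10, ANXA11 and ANXA13, which are 10 of the 60649 gene identifiers in the expression tables. They were taken by gene symbol from each of 8 RNA-seq libraries, and the family was chosen by the TPM of ANXA10, which is among the largest decreases in UF1hypo. Polyadenylated RNA was sequenced from HCT116, an established line of human colorectal carcinoma cells, and from UF1hypo, a single clone of that line in which exon 4 of one UHRF1 allele had been removed. Both lines were infected with a lentivirus that expressed an shRNA, either the control named shScr or shUHRF1, which targets UHRF1, and were kept as puromycin-selected pools. The 4 groups, HCT116 shScr, HCT116 shUHRF1, UF1hypo shScr and UF1hypo shUHRF1, held 2 libraries each, and the day of harvest is not named for these libraries.

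Annexins are calcium-dependent proteins that bind acidic phospholipids on the inner face of membranes through a conserved core of repeats, while a variable N-terminal tail sets their partners. They take part in membrane traffic, membrane repair, exocytosis and the control of inflammation. UHRF1 recognises hemimethylated DNA behind the replication fork and recruits DNMT1, so that DNA methylation is copied to the new strand. ANXA10 is best known from gastric epithelium and from colorectal tumours of the serrated pathway, whereas ANXA1, ANXA2 and ANXA5 are abundant in many epithelial cells.

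Expression is given as transcripts per 1000000 transcripts (TPM), a value scaled for gene length and for the total of each library, so levels can be set side by side between genes. UHRF1 itself stood at 87.5 and 98.4 TPM in HCT116 with shScr, 31.7 and 32.7 in HCT116 with shUHRF1, 47.3 and 50.6 in UF1hypo with shScr, and 34.1 and 21.1 in UF1hypo with shUHRF1. Of 10 colorectal epithelial markers, 7 were above 1 TPM in every library, and VIL1, CDH17 and LGALS4 were under 1 in all of them. All 6 leukocyte and 4 endothelial markers were under 1 TPM in every library, as were 5 of 6 fibroblast markers, with LUM at 0. The exception was COL1A1, at 21.1 to 28.5 TPM in the first 3 groups and at 65.5 and 37.7 in UF1hypo shUHRF1. COL1A1 had a log2 fold change of 1.01 between the shUHRF1 libraries of the lines (adjusted p = 0.0228, limma), which was 0.62 without replicate 1 of UF1hypo shUHRF1 (adjusted p = 0.0513, limma). The summed level of the epithelial markers was 4356 to 4410 TPM and 5487 to 5606 TPM in HCT116 with shScr and with shUHRF1, and 8822 to 9095 TPM and 9968 to 12780 TPM in UF1hypo with shScr and with shUHRF1. The keratins KRT8, KRT18 and KRT19 made up 90.3% to 97.1% of that sum. EPCAM stood at 363 and 372 TPM in HCT116 shScr and at 174 and 314 in UF1hypo shUHRF1. Between the shUHRF1 libraries of the lines, EPCAM had a log2 fold change of −0.39 (adjusted p = 0.25, limma). The other expressed epithelial markers, KRT20, CDH1 and CDX2, were higher in UF1hypo there. Their log2 fold changes were 4.94, 1.52 and 0.38 (adjusted p = 3.38e-06, 0.000209 and 0.129, limma). The part of these marker values in the annexin values was not tested. In bulk RNA, fewer cells that express a gene and less RNA per cell cannot be told apart.

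The libraries of UF1hypo shUHRF1 stood apart. Pearson's r between replicates across 13781 protein-coding genes was 0.956 in that group and 0.991 to 0.992 in the others. Across the same genes, which are not independent replicates, the difference of replicate 2 from replicate 1 followed transcript GC content there with a Spearman's rho of −0.814, against 0.508 in UF1hypo shScr and 0.0417 and 0.0680 in the HCT116 groups. Among the annexins, 7 of the 9 expressed members were higher in replicate 2 than in replicate 1 of UF1hypo shUHRF1, all of them with a GC content of 40.5% to 47.4%. The share of all genes that were higher in replicate 2 was not counted. At a similar GC content of 40.9% and 40.5%, ANXA4 and ANXA10 had replicate ratios of 1.12 and 1.79. The part of GC content in the replicate differences of the annexins was not tested. The exceptions, ANXA6 and ANXA11, have a GC content of 53.8% and 52.5% and had replicate ratios of 0.870 and 0.838. Values without each of these libraries are given beside the log2 fold changes that rest on them, for the members and partners described.

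The study concerns maintenance of DNA methylation, so the promoters of the members are shown first. RefSeq windows of 300 bases, 250 before and 50 after a transcription start in GRCh38.p14, were at hand for 9 members in 13 windows. The motif searched was the dinucleotide CG, which reads the same on both strands. The 250 bases before the start are printed below 5′ to 3′ for ANXA10, the member with the largest range. They are also printed for ANXA1, which shares its lack of CpG, and for ANXA3, whose window holds CpG. All 3 lie on the plus strand, at chr4:168092287-168092536, chr9:73151615-73151864 and chr4:78551520-78551769, and capitals mark CpG.
ANXA10: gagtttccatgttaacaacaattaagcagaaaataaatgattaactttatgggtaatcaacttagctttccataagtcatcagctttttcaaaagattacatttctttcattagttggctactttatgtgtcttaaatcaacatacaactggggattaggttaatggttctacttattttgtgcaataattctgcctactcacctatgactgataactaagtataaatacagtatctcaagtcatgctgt
ANXA1: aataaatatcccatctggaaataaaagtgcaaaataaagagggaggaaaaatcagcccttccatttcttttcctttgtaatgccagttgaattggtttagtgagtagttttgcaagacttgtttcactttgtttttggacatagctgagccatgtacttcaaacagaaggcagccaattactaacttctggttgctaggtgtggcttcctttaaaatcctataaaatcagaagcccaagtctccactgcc
ANXA3: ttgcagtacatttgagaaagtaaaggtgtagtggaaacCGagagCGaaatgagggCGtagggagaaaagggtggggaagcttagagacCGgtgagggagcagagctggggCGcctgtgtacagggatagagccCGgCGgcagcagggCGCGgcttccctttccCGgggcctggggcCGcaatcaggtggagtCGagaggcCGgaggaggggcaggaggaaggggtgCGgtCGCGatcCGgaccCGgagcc
Neither the ANXA10 nor the ANXA1 window held a CpG over its 300 bases, which was the case for 1.95% of 21428 protein-coding promoter windows of the same length. ANXA3 held 25, with 18 of them in the bases printed, and 41.8% of all these windows held as many or more. The other windows ranged from 7 at one ANXA11 start to 44 at one ANXA4 start. The GC content of the window was 32.7% for ANXA10 and 37.7% for ANXA1, while ANXA3 stood at 64.7%. DNA methylation was not analysed here, so these counts describe the sequence alone.

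**Figure D1:**
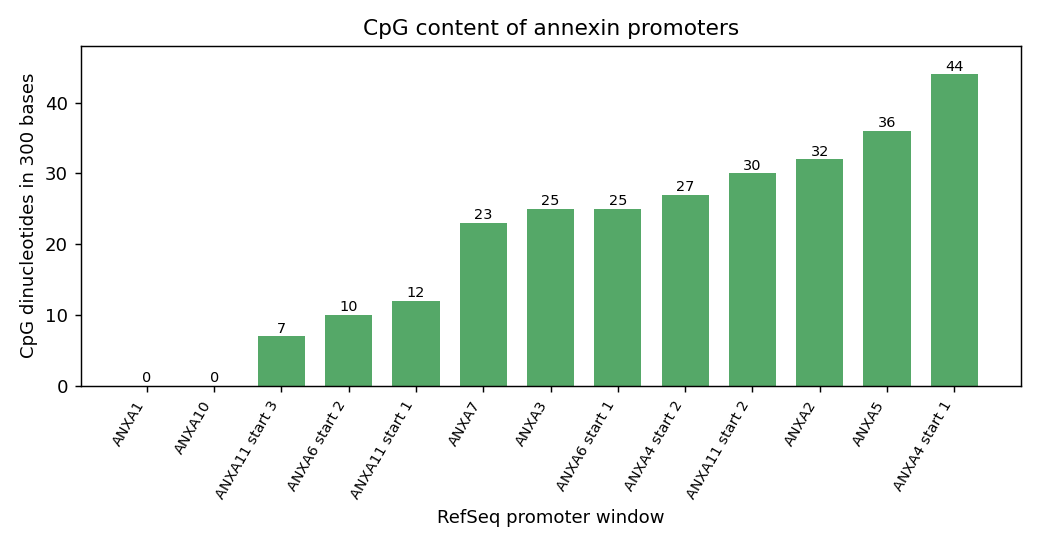
Number of CpG dinucleotides (vertical axis) in each 300-base RefSeq promoter window of the annexin genes other than ANXA13 (horizontal axis); genes with several start sites have a bar for each. The ANXA1 and ANXA10 windows hold 0, and the other windows hold 7 to 44.

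ANXA10 was the member whose level varied most, from 121 TPM in replicate 1 of HCT116 shUHRF1 to 6.42 in replicate 1 of UF1hypo shUHRF1, an 18.9-fold range. Its gene (ENSG00000109511.12) spans chr4:168092537-168187736 on the plus strand of GRCh38. The level of ANXA10 was 121 and 119 TPM in HCT116 with shScr, 121 and 96.0 in HCT116 with shUHRF1, 62.5 and 70.2 in UF1hypo with shScr, and 6.42 and 11.5 in UF1hypo with shUHRF1. Both HCT116 groups overlapped, the UF1hypo shScr libraries lay under all 4 HCT116 libraries, and the UF1hypo shUHRF1 libraries lay far under those. Group means were 119.8 ± 1.66, 109 ± 17.8, 66.3 ± 5.46 and 8.97 ± 3.60 TPM in the same order (SD, n = 2).

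For ANXA10, the knockdown in HCT116 gave a log2 fold change of −0.15 (SE 0.247) with an adjusted p of 1.00 (limma, Benjamini-Hochberg over 12704 genes), so no change was detectable there. Without replicate 2 of HCT116 shUHRF1 this value was 0.018. The decreases in UF1hypo are the values by which ANXA10 was chosen and are given with no test. The mean level of ANXA10 in UF1hypo shUHRF1 was 7.39-fold lower than in UF1hypo shScr, a log2 fold change of −2.80 on log2(TPM + 1), and −3.18 to −2.42 when any library of the contrast was left out. UF1hypo shScr was 1.81-fold lower than HCT116 shScr, and UF1hypo shUHRF1 was 12.1-fold lower than HCT116 shUHRF1, a log2 fold change of −3.12 without replicate 1 and −3.88 without replicate 2 of UF1hypo shUHRF1. After correction for GC content and transcript length these line contrasts of ANXA10 had log2 fold changes of −0.62 and −3.07, against −0.85 and −3.50 uncorrected. Replicate 2 of UF1hypo shUHRF1 stood 1.79-fold above replicate 1 for ANXA10, the largest replicate ratio of the 9 expressed members.

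By log2 fold change, ANXA10 took the third place among the decreases in UF1hypo on knockdown that passed both thresholds. Decreases that did not pass the p threshold were not ranked. CA9, a carbonic anhydrase induced by hypoxia, stood at −3.07 and the GTPase gene RAB26 at −2.87, while the next below ANXA10 were BIVM-ERCC5 at −2.55 and HS3ST1 at −2.51, which mark the values just outside it.

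**Figure D2:**
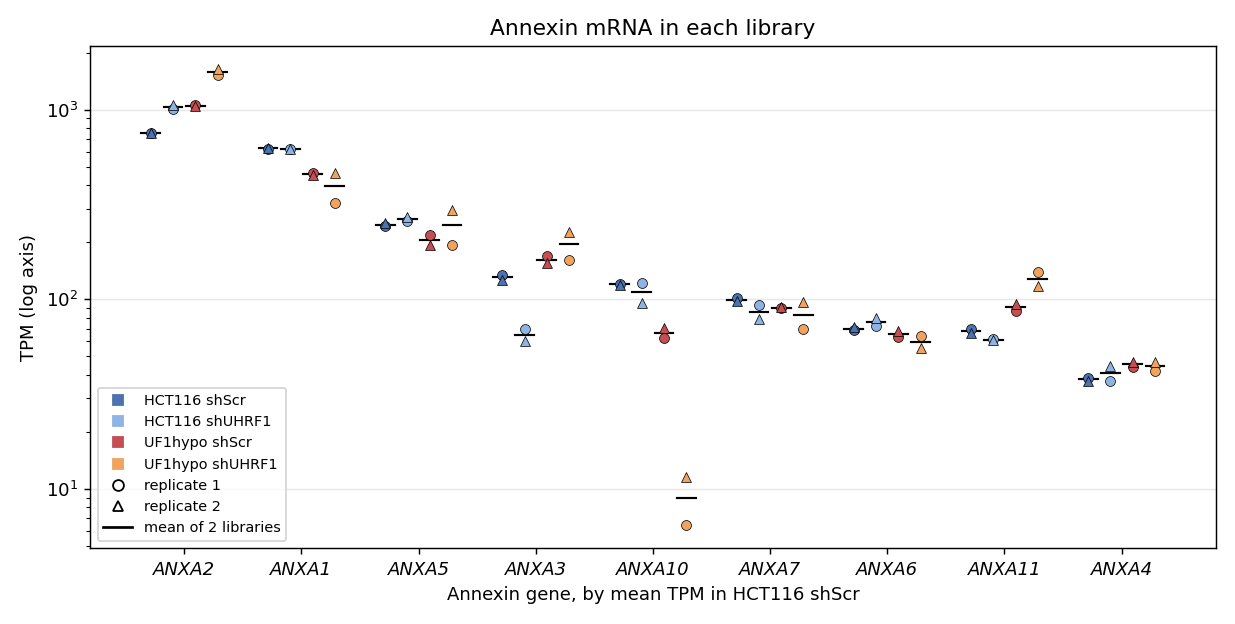
TPM (logarithmic axis) of 9 annexin genes, ordered by their mean in HCT116 shScr, in each of the 8 libraries; colours are groups, symbols are replicates and short lines are means of 2 libraries. ANXA10 runs from 121 TPM to 6.42 TPM, while ANXA2 has its highest values in UF1hypo shUHRF1 and ANXA3 its lowest in HCT116 shUHRF1.

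A lncRNA gene, ENSG00000287188, overlaps ANXA10 on the opposite strand, and whether the libraries kept strand is not stated in the sources used here, so reads of both genes cannot be told apart where they overlap. Its own listed level was 0.265 to 4.10 TPM, highest in replicate 2 of UF1hypo shUHRF1. The nearest protein-coding genes on each side had other orders of groups. DDX60, an interferon-induced helicase gene that lies 28.6 kb beyond ANXA10, stood at 2.47 and 4.25 TPM in HCT116 shScr and at 41.9 and 37.6 in UF1hypo shScr. DDX60 was called higher in UF1hypo shScr than in HCT116 shScr, with a log2 fold change of 3.25 and an adjusted p of 0.00155 (limma). On the other side, 858 kb before ANXA10, the proteoglycan gene SPOCK3 was, like ANXA10, lowest in UF1hypo shUHRF1, at 0.311 and 0.670 TPM. SPOCK3 had 2.80 and 4.62 TPM in HCT116 shUHRF1, which gave a log2 fold change of −1.64 between the shUHRF1 libraries (adjusted p = 0.00202, limma). It stood at 2.09 and 2.13 TPM in HCT116 shScr and at 2.66 and 2.17 in UF1hypo shScr. DDX60L lay at 67.0 to 149 TPM without passing the test in any of the 3 tested contrasts, and TLL1 was under 1 TPM throughout.

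The genes whose log2(TPM + 1) followed ANXA10 most closely over the 8 libraries were HTR7, a serotonin receptor (Pearson's r 0.991), TFPI, an inhibitor of the coagulation cascade (0.990), DRAM1, a p53-regulated gene of autophagy (0.990), IMPA2, an inositol monophosphatase (0.988), and BICRAL, a chromatin remodelling subunit (0.988). HTR7 stood at 52.2 and 53.8 TPM in HCT116 shScr and at 16.7 and 17.3 in UF1hypo shUHRF1. TFPI went from 18.5 and 19.7 TPM to 2.05 and 3.91 between the same groups. These correlations are a description over 4 groups of 2 libraries, in which all genes of a library share its depth and base composition, and 129 of 6935 genes ranked had an r above 0.95.

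ANXA2 was the most abundant annexin in every group. With S100A10 it forms a heterotetramer at the cell surface that binds plasminogen and its activator. The ANXA2 gene (ENSG00000182718.18) spans chr15:60347134-60402883 on the minus strand. The level of ANXA2 was 750 and 755 TPM in HCT116 with shScr, 1014 and 1055 in HCT116 with shUHRF1, 1054 and 1041 in UF1hypo with shScr, and 1527 and 1644 in UF1hypo with shUHRF1. The shUHRF1 libraries lay above the shScr libraries of their own line in both lines, and UF1hypo shScr lay within the range of HCT116 shUHRF1. On knockdown in HCT116 its log2 fold change was 0.46 (SE 0.119, adjusted p = 0.312), and between the shScr libraries of the lines it was 0.48 (SE 0.118, adjusted p = 0.0586, limma). Between the shUHRF1 libraries ANXA2 passed the p threshold, with a log2 fold change of 0.61 (SE 0.117, adjusted p = 0.00593, limma), which is below the fold threshold and left it uncalled. Its adjusted p there ranged from 0.000660 to 0.0749 over the alternatives and from 0.00193 to 0.0522 when a library was left out, and the log2 fold change was 0.67 without replicate 1 and 0.56 without replicate 2 of UF1hypo shUHRF1. With the 4 libraries of the contrast alone, library weights and the GC correction, the adjusted p of ANXA2 was 0.00635, 0.00618 and 0.0244 on knockdown in HCT116, and 0.00398, 0.000638 and 0.00496 between the shScr libraries, at log2 fold changes of no more than 0.54. In UF1hypo the knockdown value of ANXA2 was 0.60, or 0.65 and 0.54 without replicates 1 and 2 of UF1hypo shUHRF1, given without a test.

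Reads of ANXA2 may be shared with its processed pseudogenes. ANXA2P2 was listed at 1.21 to 3.26 TPM, ANXA2P1 at no more than 0.43 and ANXA2P3 at 0, so the split between them is uncertain but small beside the level of ANXA2.

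ANXA1 ranked second in every group. It is induced by glucocorticoids and acts on formyl peptide receptors to limit inflammation, and its gene (ENSG00000135046.14) spans chr9:73151865-73170393 on the plus strand. The level of ANXA1 was 622 and 632 TPM in HCT116 with shScr, 617 and 619.6 in HCT116 with shUHRF1, 465 and 455 in UF1hypo with shScr, and 323 and 466 in UF1hypo with shUHRF1. All 4 UF1hypo libraries lay under all 4 HCT116 libraries. Between the shScr libraries the log2 fold change of ANXA1 was −0.45 (SE 0.174, adjusted p = 0.218), and between the shUHRF1 libraries it was −0.67 (SE 0.174, adjusted p = 0.0211, limma), again below the fold threshold. The latter was −0.94 without replicate 2 and −0.41 without replicate 1 of UF1hypo shUHRF1, and −0.25 after correction for GC content and length, with adjusted p between 0.000320 and 0.132 over all alternatives. The knockdown in HCT116 left ANXA1 at a log2 fold change of −0.02 (SE 0.174, adjusted p = 1.00, limma), a value that took the opposite sign, 0.026 and 0.030, under median-ratio scaling and under the GC correction.

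ANXA3 had a different order of groups. Its gene (ENSG00000138772.13) spans chr4:78551747-78610451 on the plus strand. The level of ANXA3 was 135 and 126 TPM in HCT116 with shScr, 69.4 and 60.6 in HCT116 with shUHRF1, 168 and 155 in UF1hypo with shScr, and 162 and 228 in UF1hypo with shUHRF1. Both HCT116 shUHRF1 libraries lay under all 6 others, and all 4 UF1hypo libraries lay above all 4 HCT116 libraries. UF1hypo shUHRF1 was 3.0-fold higher than HCT116 shUHRF1, and ANXA3 was called there with a log2 fold change of 1.55 (SE 0.184) and an adjusted p of 0.000578 (limma). It was called in all 17 alternatives, with a log2 fold change of 1.31 and 1.80 without replicate 2 and without replicate 1 of UF1hypo shUHRF1.

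On knockdown in HCT116 the mean of ANXA3 was 2.01-fold lower, a log2 fold change of −0.997 (SE 0.186) with an unadjusted p of 0.000495 and an adjusted p of 0.115 (limma), and it was not called. Fitted on the 4 HCT116 libraries alone, with library weights or with the GC correction, the adjusted p was 0.000526, 0.000264 and 0.00287, and the fold remained just below the threshold. Between the shScr libraries the log2 fold change of ANXA3 was 0.31 (SE 0.186, adjusted p = 0.430, limma). In UF1hypo its knockdown value was 0.25, and this was 0.49 without replicate 1 and 0.0034 without replicate 2 of UF1hypo shUHRF1.

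ANXA11, which binds PDCD6 and S100A6 through a long N-terminal tail and tethers RNA granules to lysosomes, was the other member called. Its gene (ENSG00000122359.18) spans chr10:80150889-80205572 on the minus strand. The level of ANXA11 was 70.1 and 66.1 TPM in HCT116 with shScr, 61.5 and 61.3 in HCT116 with shUHRF1, 87.1 and 94.2 in UF1hypo with shScr, and 140.1 and 117 in UF1hypo with shUHRF1. None of the 4 groups overlapped, with HCT116 shUHRF1 lowest and UF1hypo shUHRF1 highest. UF1hypo shUHRF1 was 2.1-fold higher than HCT116 shUHRF1, a log2 fold change of 1.05 (SE 0.150, adjusted p = 0.00145, limma). The adjusted p of ANXA11 stayed below the threshold in all 17 alternatives, while its fold dropped under the threshold in 5 of them, down to 0.81 after the GC correction and 0.92 without replicate 1 of UF1hypo shUHRF1. Between the shScr libraries the value was 0.41 (SE 0.154, adjusted p = 0.202), and on knockdown in HCT116 it was −0.15 (SE 0.154, adjusted p = 1.00, limma). The knockdown value of ANXA11 in UF1hypo was 0.50, or 0.37 and 0.62 without replicates 1 and 2 of UF1hypo shUHRF1, with no test.

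**Figure D3:**
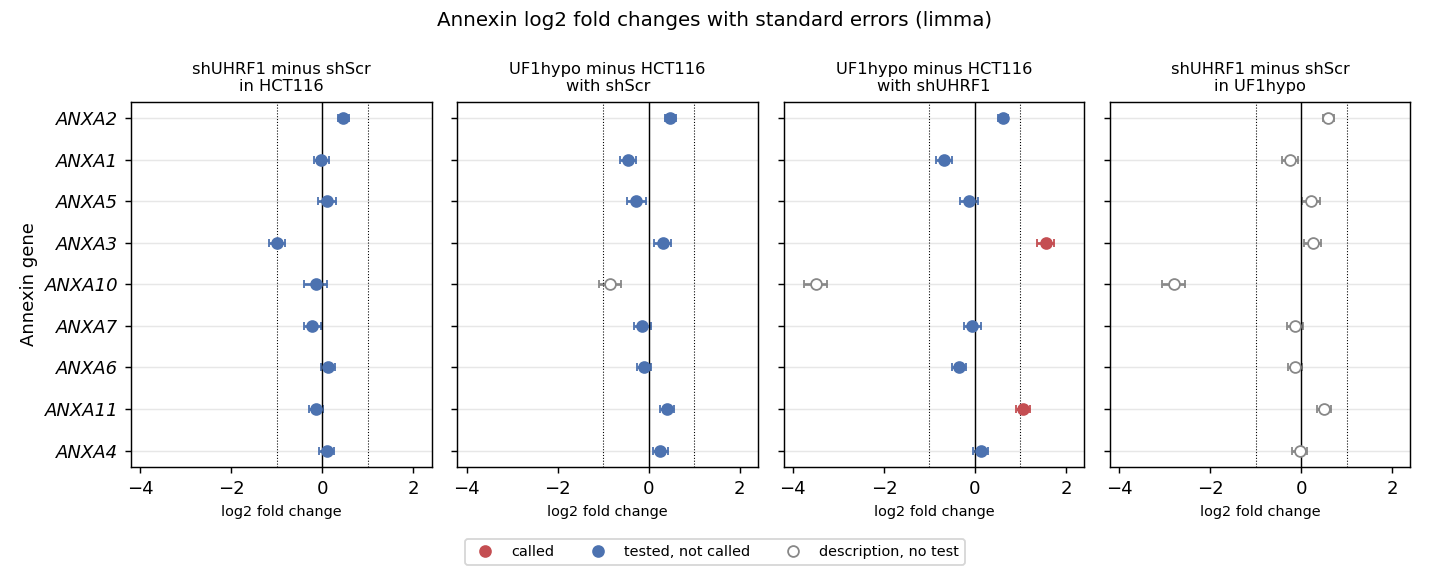
Log2 fold change (horizontal axis) with its standard error for 9 annexin genes (vertical axis) in 4 contrasts; red points passed both thresholds, blue points were tested and not called, open points are descriptions without a test, and dotted lines mark the fold threshold of 1 in either direction. ANXA3 and ANXA11 are called between the shUHRF1 libraries of the lines, and the ANXA10 points lie at −3.50 there and at −2.80 on knockdown in UF1hypo.

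The remaining expressed members were not called in any tested contrast. ANXA5, the phosphatidylserine-binding protein used as a probe of apoptotic cells, lies at chr4:121667946-121696995 on the minus strand. The level of ANXA5 ranged from 193 TPM in replicate 1 to 297 in replicate 2 of UF1hypo shUHRF1, so its lowest and highest values fell in the same group. ANXA4, a protein of epithelial secretory membranes (chr2:69644425-69827112, plus strand), lay between 37.2 and 46.9 TPM. AAK1, read from the opposite strand over ANXA4, stood at 4.85 to 13.2 TPM. ANXA6, whose core is duplicated and which binds RASA1 on endosomal membranes (chr5:151100706-151157785, minus strand), lay between 55.5 and 79.5 TPM. ANXA7, also known as synexin, promotes membrane fusion and binds sorcin (chr10:73375101-73414076, minus strand), and its level was 69.8 to 101 TPM. The log2 fold changes of these 4 genes lay between −0.35 for ANXA6 between the shUHRF1 libraries (adjusted p = 0.112, limma) and 0.25 for ANXA4 between the shScr libraries (adjusted p = 0.469, limma). The value of ANXA6 was −0.65 after the GC correction (adjusted p = 0.00153) and −0.47 with quantile normalization (adjusted p = 0.0362, limma). For ANXA6 it was −0.44 and −0.25 without replicates 1 and 2 of UF1hypo shUHRF1. With the 4 libraries of the contrast alone it stayed at −0.35 (adjusted p = 0.394, limma). After the GC correction ANXA4 stood at 0.50 between the shScr libraries and 0.48 between the shUHRF1 libraries (adjusted p = 0.124 and 0.0929, limma). Without replicate 2 of UF1hypo shUHRF1, ANXA5 had a log2 fold change of −0.45 between the shUHRF1 libraries (adjusted p = 0.00973), against 0.17 without replicate 1 (adjusted p = 0.243, limma).

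ANXA13, the member best known from intestinal and kidney epithelium, was listed at 0 TPM in all 8 libraries and was not tested. How many reads lie behind a value is unknown, since the tables hold no counts.

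Calls required both an adjusted p under 0.05 and a log2 fold change beyond 1 in either direction. On knockdown in HCT116, 0 of 9 annexins tested were called by limma and 2 had an unadjusted p under 0.05, where 0.0708% of all genes tested were called and 6.38% had such an unadjusted p. Libraries of the knockdown and control groups did not overlap for 7 of the 9, 3 higher and 4 lower, beside 49.4% of all genes. The median log2 fold change of the 9 was −0.02, beside −0.03 over all genes. UHRF1, the target of the knockdown, was itself not called there. Its decrease passed the fold threshold, but its adjusted p was 0.0564 (limma). The count of 0 annexins called in that contrast therefore does not show that their levels were unchanged. Between the shScr libraries of the lines, 0 of 8 annexins other than ANXA10 were called and 3 had an unadjusted p under 0.05, beside 3.54% of all genes called and 18.2% with such an unadjusted p. All of these 8 had libraries that did not overlap between the lines, 4 higher and 4 lower, which was the case for 66.4% of all genes tested. UHRF1 was not called between the shScr libraries either, with a fold below the threshold and an adjusted p of 0.0545 (limma). The count of 0 between these libraries has the same limit. Between the shUHRF1 libraries, 2 of 8 were called, both higher, where 16.2% of all genes were called and 12.2% were called higher, and 4 of 8 had an adjusted p under 0.05 at any fold, beside 30.2% of all genes. The median of these 8 was 0.03, beside 0.05 over all genes. On knockdown in UF1hypo, where the family was chosen, the members other than ANXA10 had log2 fold changes of −0.25 to 0.60, and no conclusion is drawn from a count of calls there. These contrasts share libraries, so their values are not independent of each other.

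The summed level of the 10 annexins was 2153 ± 5.03 and 2355 ± 15.5 TPM in HCT116 with shScr and with shUHRF1, and 2233 ± 25.9 and 2744 ± 308 TPM in UF1hypo with shScr and with shUHRF1 (SD, n = 2). ANXA2 made up 34.9%, 43.9%, 46.9% and 58.0% of that sum in the same order, and ANXA1 made up 29.1%, 26.3%, 20.6% and 14.2%. ANXA10 supplied 5.56%, 4.62%, 2.97% and 0.321%. The ratio of ANXA2 to ANXA1 was thus 1.2 ± 0.00697, 1.67 ± 0.0411, 2.28 ± 0.0175 and 4.13 ± 0.854, and these ratios did not overlap between groups. With 2 libraries against 2, an exact two-sided permutation test cannot give a p below 0.33 for such a ratio. The highest levels belonged to ANXA2, ANXA1 and ANXA5 in that order in all 4 groups, and ANXA10 took the fifth place in HCT116 shScr and the ninth in UF1hypo shUHRF1. Neighbours in that order whose libraries overlapped were ANXA6 and ANXA11 in HCT116 shScr, ANXA7 with ANXA6 and ANXA3 with ANXA11 in HCT116 shUHRF1, ANXA11 with ANXA7 and ANXA10 with ANXA6 in UF1hypo shScr, and ANXA5 with ANXA3 in UF1hypo shUHRF1.

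**Figure D4:**
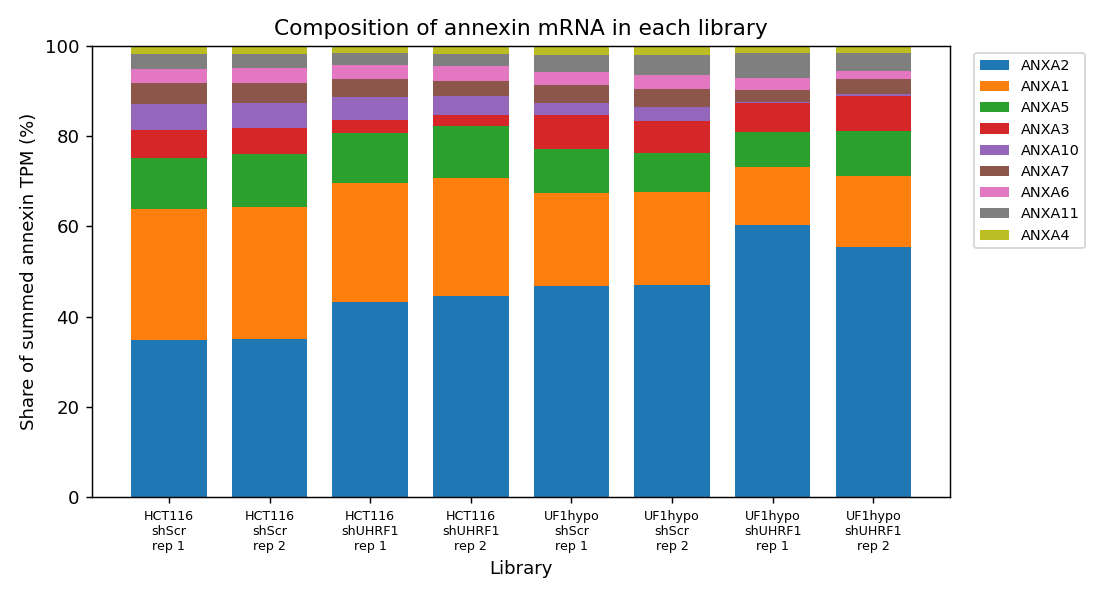
Share of the summed annexin TPM (vertical axis, %) taken by each of 9 annexin genes in each of the 8 libraries (horizontal axis), stacked to 100%. The mean ANXA2 share goes from 34.9% in HCT116 shScr to 58.0% in UF1hypo shUHRF1, while that of ANXA10 goes from 5.56% to 0.321%.

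Binding partners and the plasminogen system were followed as a list of 21 genes, which includes the S100 proteins that bind annexin tails, ferlins of membrane repair, and the receptors and proteases tied to ANXA1 and ANXA2. On knockdown in HCT116, 0 of 15 tested were called by limma, with 3 at an unadjusted p under 0.05, beside 6.38% of all genes. In the shScr contrast of the lines 1 of 15 was called, beside 3.54% of all genes, and in the shUHRF1 contrast 4 of 16 were called higher and 0 lower, beside 12.2% of all genes called higher. DYSF, 1 of these 4, passed the filter on low values through UF1hypo shUHRF1 alone, so its call carries no weight. The count also turned on the libraries of that group. Without replicate 1, S100A11 and the ferlin gene MYOF passed both thresholds with a log2 fold change of 1.03 each, and without replicate 2 the phospholipase gene PLA2G4A and the ubiquitin ligase gene NEDD4 did so at −1.45 and −1.19. The median log2 fold change of the list was −0.13, 0.30 and 0.25 in these contrasts, beside −0.03, −0.05 and 0.05 over all genes.

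S100A4, a motility-associated S100 protein that binds ANXA2, stood at 150.3 and 136 TPM in HCT116 shScr and at 1519 and 1491 in UF1hypo shScr, a log2 fold change of 3.39 (SE 0.170, adjusted p = 2.43e-05, limma). It was also higher in UF1hypo shUHRF1, at 571 and 761 TPM, than in HCT116 shUHRF1, at 181 and 214 TPM, with a log2 fold change of 1.74 (adjusted p = 0.000204, limma), which was 1.95 and 1.53 without replicates 1 and 2 of UF1hypo shUHRF1. Called higher between the shUHRF1 libraries were also PLAT, the tissue plasminogen activator, with a log2 fold change of 1.71, and PLAUR, the urokinase receptor, with 1.36. Without replicates 1 and 2 of UF1hypo shUHRF1 these were 1.53 and 1.89 for PLAT and 1.15 and 1.57 for PLAUR. PLAUR stood at 121 and 108 TPM in HCT116 with shScr and at 61.3 and 63.9 with shUHRF1. In UF1hypo PLAUR stood at 130 and 150 TPM with shScr and at 187 and 140 with shUHRF1. PLAU, the urokinase gene, was not called and had −0.16 between the shUHRF1 libraries (adjusted p = 0.467, limma). This was −0.14 and −0.18 without replicates 1 and 2 of UF1hypo shUHRF1. On knockdown in HCT116, PLAUR and PLAU both had −0.86 (adjusted p = 0.165 and 0.115, limma). DYSF, the ferlin dysferlin, was at 2.07 and 1.69 TPM in UF1hypo shUHRF1 and under 1 TPM in the 6 other libraries.

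S100A10, the partner of ANXA2, did not pass the test in any tested contrast and had log2 fold changes of 0.49, −0.03 and 0.07 on knockdown in HCT116, between the shScr libraries and between the shUHRF1 libraries. Its levels of 335 and 775 TPM in UF1hypo shUHRF1 were far apart, and the last of these values was 0.67 without replicate 1 and −0.54 without replicate 2 (adjusted p = 0.0258 and 0.0318, limma). S100A11, the partner of ANXA1, stood at 267 and 287 TPM in HCT116 shUHRF1 and at 501 and 569 in UF1hypo shUHRF1, a log2 fold change of 0.94 (adjusted p = 0.0012, limma) below the fold threshold, and 1.03 and 0.85 without replicates 1 and 2 of UF1hypo shUHRF1. The ratio of ANXA1 to S100A11 was 2.02 and 2.23 in HCT116 with shScr and with shUHRF1, and 1.16 and 0.732 in UF1hypo likewise. The formyl peptide receptor genes FPR1, FPR2 and FPR3 were under 1 TPM in every library, and PLG, which encodes plasminogen, was listed at 0 in all of them.

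Of the annexin genes outside the members, ANXA9 lay at 2.33 to 5.41 TPM and was not called. The related gene ANXA2R lay at 0.429 to 1.13 TPM and was not called. ANXA8 was listed at 0 in all 4 HCT116 libraries and in replicate 1 of UF1hypo shScr, at 0.416 TPM in replicate 2 of UF1hypo shScr, and at 2.22 and 0.955 in UF1hypo shUHRF1. It passed the filter of 1 TPM through replicate 1 of UF1hypo shUHRF1 alone, so no test of it is given. ANXA8L1, a near-identical copy with which ANXA8 may exchange reads, reached at most 0.33 TPM.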

How the data were processed

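The authors trimmed reads with Fastp and used HISAT2 2.0.4 for alignment to GRCh38 and StringTie 2.1.4 for abundances. Deposited by the authors were, per gene, coverage (mean read depth per base, not scaled for library depth), FPKM (scaled for length and aligned bases) and TPM (scaled to 1000000 per library). No counts were given, so DESeq2, the authors' tool, was not run and counting intervals were not formed. Aligned bases, recovered from coverage and FPKM of genes with a single transcript, were 5.42 to 7.83 gigabases per library.

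Of 60649 identifiers, 60507 matched GENCODE 44 and 19960 were protein-coding. All 8 libraries entered 1 limma 3.58.1 fit (R 4.3.3) on log2(TPM + 1) with a variance trend and 4 residual degrees of freedom. The fit was also run on simulated data with the same spread for every gene and library. That run does not bear on the wider spread of UF1hypo shUHRF1. The pseudocount understates changes of low genes. Genes with TPM above 1 in at least 1 library of a contrast were tested. Adjustment was Benjamini-Hochberg over all genes of the contrast, and tests were two-sided. Summaries used matplotlib 3.10.9, SciPy 1.17.1, pandas 2.3.3 and numpy 2.4.6 under Python 3.11.15. RefSeq promoter windows came from GRCh38.p14.

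Libraries were grouped by their titles. The labels do not say that replicates came from separate cultures, so p-values measure the spread between these libraries, pooled over all 4 groups. The wide spread of UF1hypo shUHRF1 thus enters contrasts without its libraries. With the 4 libraries of a contrast alone, the SE of ANXA1 was 0.0727 on knockdown in HCT116 and 0.25 between the shUHRF1 libraries, against 0.174. Genes called in the tested contrasts were then 89, 585 and 2063, against 9, 455 and 2205. Members, lists and tests were chosen with earlier results of these data known. Values from the knockdown in UF1hypo, from its difference from HCT116, and of ANXA10 in any contrast with UF1hypo carry no p. Named were all members, UHRF1, other annexin genes and copies, the called genes of 2 partner lists with S100A10 and S100A11, the 2 nearest protein-coding genes on each side of ANXA10, and the 5 genes most correlated with it whose range was at least 1 on the log2 scale. Some further genes were named after their values were seen. These were genes beside ANXA10 by rank of decrease, receptors under 1 TPM, PLAU, partners called only with a library left out, and single cell type markers. Alternatives concerned the pseudocount, filters, gene set, libraries fitted, unit, scaling, variance model, library weights, duplicate records, GC content and length, a replicate block and left-out libraries.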

Additional observations from a re-analysis of the deposited data

Results flagged for a closer look

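The knockdown values of 3 annexins lay apart between the lines. They are descriptions with no test, since they hold the knockdown contrast in UF1hypo by which the family was chosen. For ANXA10 the knockdown effect in UF1hypo minus that in HCT116 was −2.65 on the log2 scale, between −3.03 and −2.28 when a library was left out. For ANXA3 the same difference was 1.25, with −0.997 in HCT116 and 0.25 in UF1hypo, and it ranged from 1.00 to 1.49 when a library was left out. Both differences were beyond 1 in size. For ANXA11 the difference was 0.64, and its knockdown libraries lay below the shScr libraries in HCT116 and above them in UF1hypo. The replicates of UF1hypo shUHRF1 differed 1.79-fold for ANXA10 and 1.41-fold for ANXA3, with a ratio of 0.838 for ANXA11, and the part of that spread in these differences was not tested.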

How the results depend on the processing

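The counts of 0 annexins called on knockdown in HCT116 and between the shScr libraries were the same in every alternative run. Between the shUHRF1 libraries the count went from 2 to 1 with FPKM, median-ratio scaling, quantile normalization and the GC content and length correction, and was 1 to 2 with a library left out (1 without replicate 1 of UF1hypo shUHRF1). The fold of ANXA11 fell under the threshold in these cases. In the 2 contrasts that hold the knockdown in UF1hypo, the counts past the thresholds are no test, since the family was chosen there. That count was 1 in UF1hypo, ANXA10 itself, in every alternative run, where 1162 of 13620 genes passed as reported. ANXA10 was chosen for this decrease, so that constancy carries no weight. For the difference of knockdown values the count was 2, where 702 of 13781 genes passed as reported. It went from 2 to 1 with FPKM, quantile normalization and the replicate block, and was 1 to 2 with a library left out: 1 without any single HCT116 or UF1hypo shScr library. The cause was not tested.

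Of 425 alternatives to 25 tested values of single members, 409 kept their direction and whether the gene was called. The adjusted p alone crossed 0.05, with no call, in 27 alternatives of 10 values, most often with the 4 libraries of a contrast alone, library weights or the GC correction. In the shScr contrast it reached 0.00234 for ANXA1, 0.0186 for ANXA3 and 0.00879 for ANXA11. In the shUHRF1 contrast it rose to 0.0896 to 0.132 for ANXA1 in 4 alternatives, among them without either HCT116 shUHRF1 library. Signs turned for small values only. On knockdown in HCT116, ANXA1 became 0.0258 with median-ratio scaling and 0.0296 with the GC correction, and with a library left out ANXA4 ran from −0.0256 to 0.223 and ANXA10 from −0.316 to 0.0178. Between the shScr libraries ANXA7 became 0.0231 with the GC correction. Between the shUHRF1 libraries the GC correction gave 0.140 for ANXA5 and 0.224 for ANXA7, and with a library left out ANXA4 ran from −0.0006 to 0.248, ANXA5 from −0.449 to 0.168 and ANXA7 from −0.286 to 0.172.

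Replicate numbers are shared by the groups, but same-numbered libraries did not deviate together. UF1hypo shScr and UF1hypo shUHRF1 deviated in opposite directions (correlation of −0.402), and the other pairs of groups had correlations of −0.0292 to 0.0547. The block of replicate numbers was thus an alternative only. It left 0, 0 and 2 annexins called in the contrasts tested. In UF1hypo, 1162 genes were called on knockdown, 1110 with the block and 1207 with the numbers crossed, a choice made after seeing the data. In the difference the block called 471 genes against 702.

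Counts over all genes moved more. They ran from 0 to 101 on knockdown in HCT116 (9 as reported), from 149 to 598 between the shScr libraries (455), from 1495 to 3859 between the shUHRF1 libraries (2205), from 539 to 2255 on knockdown in UF1hypo (1162) and from 171 to 2142 in the difference (702). Quantile normalization gave 1185 higher and 987 lower between the shUHRF1 libraries, against 1670 and 535, and 669 and 335 on knockdown in UF1hypo, against 1007 and 155. Mean levels in FPKM are in another unit and were not compared with TPM. With 2 libraries a group and unknown read counts, small changes of annexins near the spread between replicates were not detectable.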
